A study of Sus scrofa with 19 samples.

Results

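The smooth muscle contractile genes examined here were *ACTA2*, *ACTG2*, *TAGLN*, *MYH11*, *CNN1*, *MYLK*, *LMOD1* and *SMTN*. They were chosen by name, as a measure of vessels and myofibroblasts in the tissue, and all 8 of 8 were found among the 25879 genes counted and among the 13552 genes with enough reads to be tested. The 19 libraries, 1 per pig, are labelled as left ventricular (LV) myocardium of Large White pigs described as female, and 3 of them went against the tissue label in their chamber markers (below). DOX pigs (n = 5) received free doxorubicin and MYO pigs (n = 5) received Myocet, its liposomal form, both at 60 mg/m2 in 3 cycles with tissue taken from the anterior wall after 3 months. RemoLV pigs (n = 3) underwent a reperfused coronary occlusion of 90 min and gave tissue of the non-ischemic posterior wall after 6 months. Hyper pigs (n = 3) carried a stenosis of the aortic isthmus made with a stent of 9 mm, and Control pigs (n = 3) are called sham-operated in the sample descriptions and untreated in the methods of the study. Both of the last groups gave anterior wall after 6 months, so that the anthracycline groups differed from the others in follow-up as well as in treatment.

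The members build and regulate the contractile apparatus of smooth muscle cells. Smooth muscle actins form thin filaments, smooth muscle myosin pulls on them once its light chain has been phosphorylated by myosin light chain kinase, and calponin, transgelin, smoothelin and leiomodin bind or shape the actin filaments. In the heart these genes mark the media of coronary vessels, and *ACTA2* and *TAGLN* are also switched on in myofibroblasts, the contractile fibroblasts of scar tissue. Many of them are known targets of serum response factor (SRF) and its partner myocardin, which act through a DNA motif called the CArG box. In whole tissue, fewer cells of a type and less RNA per cell cannot be told apart.

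The libraries held between 9527710 and 20370209 counts (median 14527230), and levels are given as CPM, counts per 1000000 of the library total after TMM scaling, which adjusts for differences in composition between libraries. The sample names of the deposits disagreed. Each of the 19 columns of the authors' expression table ranked the genes exactly as 1 count file did (Spearman 1.0, against at most 0.9919 with any other file), and for 8 columns that file carried another group label: the table exchanges Control with RemoLV and exchanges DOX 5 with MYO 1. Some replicate numbers differ as well, since the table's Hyper 1 is Hyper 3 of the count files and its RemoLV 1 is Control 3, and all replicate numbers below are those of the count files. Groups below follow the labels of the count files unless the table names are given. The libraries labelled RemoLV stood apart in chamber markers. *MYL2*, the ventricular regulatory myosin light chain, was between 18.6 and 115 CPM in them and between 8980 and 18100 CPM elsewhere, whereas *MYL4*, the atrial light chain, was between 6030 and 8130 CPM in them and at most 21.9 CPM elsewhere. The summed level of 8 atrial markers was between 9440 and 12700 CPM in RemoLV and between 95.6 and 148 CPM in Control. It was between 1120 and 2420 CPM in DOX, between 777 and 1260 CPM in MYO and between 212 and 1270 CPM in Hyper. *DDX3Y*, a Y-chromosome gene, was between 96.1 and 177 CPM in DOX and MYO, and in the other 9 libraries it did not exceed 0.137 CPM. Control 1 and Control 3 also stood apart from Control 2, with *HBB* (a hemoglobin chain) at 337 and 325 CPM against 35.1 CPM.

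The promoters of *ACTA2* and *ACTG2*, the smooth muscle actins, are shown because these genes varied together across libraries (below), with that of *SMTN*, which varied least. Each sequence is the 250 bases before the RefSeq start of the gene in Sscrofa11.1, 5′ to 3′ on the strand of the gene. A CArG box is CC, then 6 bases of A or T, then GG, and capitals mark near boxes, in which 1 of the 6 central bases is G or C. Both kinds read the same class of letters on both strands. The intervals are chr14:100886733-100886982 (minus strand) for *ACTA2*, chr3:69121543-69121792 (minus strand) for *ACTG2* and chr14:47879067-47879316 (plus strand) for *SMTN*.
ACTA2: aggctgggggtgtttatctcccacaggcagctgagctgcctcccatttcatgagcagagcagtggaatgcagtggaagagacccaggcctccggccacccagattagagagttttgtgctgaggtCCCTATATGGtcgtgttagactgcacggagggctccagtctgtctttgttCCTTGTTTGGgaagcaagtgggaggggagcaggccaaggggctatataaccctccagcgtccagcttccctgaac
ACTG2: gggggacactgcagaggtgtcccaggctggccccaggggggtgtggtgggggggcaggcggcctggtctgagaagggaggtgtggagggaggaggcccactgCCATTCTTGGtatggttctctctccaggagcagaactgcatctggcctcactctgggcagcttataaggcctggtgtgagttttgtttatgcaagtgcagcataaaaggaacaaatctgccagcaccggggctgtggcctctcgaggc
SMTN: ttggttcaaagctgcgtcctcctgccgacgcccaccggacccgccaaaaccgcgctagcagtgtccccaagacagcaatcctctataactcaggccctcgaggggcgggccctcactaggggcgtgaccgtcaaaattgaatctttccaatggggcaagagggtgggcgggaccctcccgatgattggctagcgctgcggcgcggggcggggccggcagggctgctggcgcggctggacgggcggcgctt

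Near boxes lay 125 and 75 bases before the start of *ACTA2* and 148 bases before that of *ACTG2*, and neither window held a full box. The windows of *MYH11*, *CNN1*, *MYLK*, *LMOD1* and *SMTN* held neither kind. Of these, *MYH11* and *LMOD1* also varied with *ACTA2* across libraries (correlations 0.647 and 0.655, against 0.717 for *ACTG2*). Among the promoters of 19531 protein-coding genes, 1.31% held a CArG box and 5.72% a near box. A match of letters is not a measured binding site, and known boxes outside these windows were not searched for.

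Per kilobase of exon, the most abundant members were *SMTN* (mean of 19 libraries 64.9 CPM per kb), *TAGLN* (63.5) and *ACTA2* (60.1). *CNN1* had 31.8 CPM per kb, *MYLK* 10.2 and *MYH11* 8.9. *ACTG2*, the enteric form of smooth muscle actin, and *LMOD1*, the leiomodin of smooth muscle, had the lowest levels of the 8, with 2.39 and 1.65 CPM per kb. Some paralogs of striated muscle were far more abundant: *ACTA1* (skeletal actin) had 5630 CPM per kb, *ACTC1* (cardiac actin) 3030 and *LMOD2* (cardiac leiomodin) 167. *MYLK3*, the cardiac light chain kinase, had 23.6 CPM per kb. Among the other paralogs, *ACTG1* had 278 CPM per kb, *ACTB* 132, *TAGLN2* 41.4, *MYH9* 36.2, *CNN3* 32.7 and *CNN2* 13.4. *MYH10* (0.422), *TAGLN3* (0.137), *MYLK2* (0.108) and *MYLK4* (0.0981) were the least abundant paralogs. Of all 50-base stretches in the exons of *ACTA2*, 0.293% also occurred in another actin gene, and of those of *MYH11* 0.962% occurred in a nonmuscle myosin gene, whereas the other 6 members shared none with their listed paralogs. The counts of *MYH11* belong to an Ensembl gene that the authors' table names *MYH11*, and its place in the genome was not checked here.

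**Figure D1:**
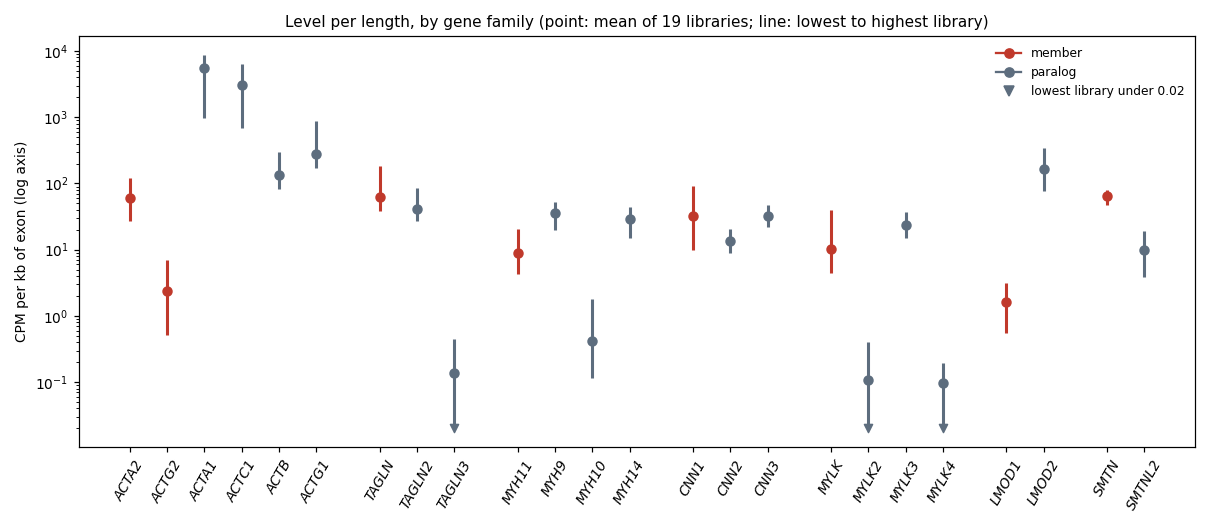
Level per length of each member (red) and its paralogs (grey), in CPM per kb of exon on a log axis, with the point at the mean of 19 libraries and the line from the lowest to the highest library. Means of the members ran from 1.65 (*LMOD1*) to 64.9 (*SMTN*), and the sarcomeric actins *ACTA1* and *ACTC1* lay at 5630 and 3030.

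*SMTN* encodes smoothelin, an actin-associated protein of contractile smooth muscle with a large and a short isoform that gene counts do not separate. It was measured at 251, 237, 224, 253 and 228 CPM in the 5 DOX libraries and at 247, 243, 262, 243 and 257 CPM in the 5 MYO libraries. The Control libraries had 178, 163 and 158 CPM. All 10 DOX and MYO libraries therefore lay above all 3 Control libraries. In edgeR's quasi-likelihood test *SMTN* rose with a log2 fold change of 0.52 ± 0.103 (SE, adjusted p = 0.000712) in DOX and of 0.59 ± 0.103 (adjusted p = 0.000258) in MYO. Hyper libraries had 161, 220 and 220 CPM, 1 of them within the range of Control, and the difference from Control was 0.27 ± 0.113 on the log2 scale (adjusted p = 0.233), which without Hyper 1 was 0.40 and passed (adjusted p = 0.0312). RemoLV libraries had 152, 184 and 159 CPM, which overlapped Control (log2 fold change -0.01 ± 0.113, adjusted p = 0.951). The mean of DOX and MYO against Hyper, a comparison without Control libraries, gave a log2 fold change of 0.29 ± 0.093 (adjusted p = 0.0233), which without Hyper 1 was 0.155 (adjusted p = 0.223) and with the replicate number as a block was 0.29 but not called (adjusted p = 0.064). The calls in DOX and MYO held under the table names (0.55 and 0.58, adjusted p = 0.000663 and 0.000458). Scaled by library totals alone the fold changes in DOX and MYO were larger (up to 1.02), beside a median over all genes that this scaling moved to about 0.44. The groups in which *SMTN* was called, DOX and MYO, were those with Y-chromosome reads and with a follow-up of 3 months, and neither can be told apart from treatment.

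*MYLK* encodes smooth muscle myosin light chain kinase, which starts contraction by phosphorylating the regulatory light chain. Its levels turned on the Control group: Control 1 had 253 CPM and Control 3 had 370 CPM, against 50.7 CPM in Control 2. DOX libraries had 83.1, 87.6, 65.9, 41.7 and 43.7 CPM, and MYO libraries had 71.2, 49.9, 70.0, 46.1 and 49.6 CPM. RemoLV had 75.9, 95.7 and 99.6 CPM, and Hyper had 67.9, 49.0 and 117 CPM. Both high Control libraries exceeded every library of the other groups, and Control 2 lay among them. *MYLK* fell by 1.80 ± 0.409 on the log2 scale in DOX (adjusted p = 0.00206), by 1.97 ± 0.410 in MYO (adjusted p = 0.00106) and by 1.31 ± 0.474 in RemoLV (adjusted p = 0.0297). In Hyper the log2 fold change was -1.52 ± 0.477 (adjusted p = 0.142). The call in RemoLV was lost without any 1 RemoLV library, Control 1 or Control 3 (adjusted p between 0.057 and 0.231), and without Control 2 *MYLK* was also called lower in Hyper (adjusted p = 0.00123). Without both Control 1 and Control 3 no comparison with Control called *MYLK*, and the log2 fold changes became 0.35 (DOX), 0.18 (MYO), 0.83 (RemoLV) and 0.62 (Hyper) (adjusted p between 0.215 and 0.956). Under the table names *MYLK* was not called in DOX or MYO (log2 fold change -0.37 and -0.80) and was 1.31 ± 0.458 higher in RemoLV than in Control (adjusted p = 0.025).

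Other genes separated the same libraries from Control 2. *MYOCD*, which encodes myocardin, had 49.0 and 47.9 CPM in Control 1 and Control 3 and 19.3 CPM in Control 2. *ROCK2*, a kinase that restrains myosin phosphatase, had 116 and 189 CPM against 30.0 CPM. *TEAD1*, a transcription factor of muscle genes, had 45.8 and 65.9 CPM against 18.9 CPM. *SYNM*, which encodes the intermediate filament protein synemin, had 489 and 554 CPM against 208 CPM. These genes were chosen after their values were seen, from the lists of regulators and partners. The part of library composition in these levels was not tested.

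*CNN1* encodes calponin, an actin-binding inhibitor of the myosin ATPase in differentiated smooth muscle. Hyper had the lowest group level, with 15.9, 23.6 and 23.0 CPM. RemoLV libraries had 71.4, 65.8 and 97.2 CPM, all above all Hyper libraries. *CNN1* was higher in RemoLV than in Hyper by 1.91 ± 0.540 on the log2 scale (adjusted p = 0.0102), and leaving out any 1 of the 6 RemoLV and Hyper libraries kept this call (highest adjusted p = 0.0476). DOX libraries had 145, 45.2, 41.3, 46.3 and 25.1 CPM, and MYO libraries had 46.2, 64.1, 31.4, 24.4 and 34.4 CPM. Each of these 10 also exceeded the highest Hyper library, and the mean of DOX and MYO was above Hyper by 1.25 ± 0.459 (adjusted p = 0.0447). That call was lost on leaving out any Hyper library (adjusted p up to 0.189), MYO 1, MYO 2 or MYO 5, and without the RemoLV libraries in the fit (adjusted p = 0.0595). Control libraries had 79.6, 22.6 and 72.9 CPM, with Control 2 at the level of Hyper, and *CNN1* was not called in any group against Control. Its log2 fold change in Hyper was -1.48 with all libraries, -1.87 without Control 2 (adjusted p = 0.0197, called) and -0.115 without Control 1 and Control 3 (adjusted p = 0.995). With the table names, in which the libraries labelled RemoLV serve as Control, the log2 fold change in Hyper was -1.91 ± 0.505 (adjusted p = 0.00665), and RemoLV against Hyper was no longer called (1.48, adjusted p = 0.164). The libraries labelled RemoLV, in which *CNN1* was high, also carried the highest levels of *COL3A1*, a fibrillar collagen of fibroblasts, at 5960 to 6940 CPM against 667 to 1910 CPM in Hyper, and of the atrial markers given above, and the part of either in the *CNN1* difference was not tested.

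*ACTA2*, vascular smooth muscle actin and the usual marker of myofibroblasts, was not called in any of the 7 comparisons. DOX libraries had 168, 102, 84.5, 73.2 and 61.3 CPM, and MYO libraries 67.5, 65.9, 79.4, 98.3 and 134 CPM. Control had 92.3, 67.2 and 58.7 CPM, Hyper 41.7, 74.4 and 96.5 CPM, and RemoLV 38.3, 69.6 and 130 CPM. Every group therefore spanned at least a 1.57-fold range that overlapped the others. The log2 fold change against Control was 0.43 ± 0.374 in DOX (adjusted p = 0.373) and 0.29 ± 0.373 in MYO (adjusted p = 0.552). *TAGLN*, which encodes transgelin (SM22-alpha), an early marker of smooth muscle differentiation, had 273 CPM in DOX 1 and 109, 62.3, 77.7 and 59.2 CPM in the other DOX libraries. Control libraries had 136, 73.4 and 78.0 CPM, MYO libraries between 66.5 and 103 CPM, RemoLV between 56.8 and 125 CPM and Hyper between 56.4 and 123 CPM. Its log2 fold change in DOX was 0.28 ± 0.428 (adjusted p = 0.622).

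*MYH11*, smooth muscle myosin heavy chain and a marker of mature smooth muscle, had 108 CPM in DOX 1 against 51.7 CPM or less in the other DOX libraries, and 138 CPM in RemoLV 3 against 56.6 CPM or less in the other RemoLV libraries. Its median was 70.4 CPM in Control, 56.6 CPM in RemoLV, 50.6 CPM in Hyper, 47.2 CPM in MYO and 38.1 CPM in DOX, with overlap of all groups. *LMOD1*, which encodes a protein that starts actin filaments, lay between 2.04 CPM (RemoLV 1) and 11.7 CPM (RemoLV 3), a 5.72-fold range within 1 group. Without RemoLV 3 it was lower in RemoLV than in Control (log2 fold change -1.09, adjusted p = 0.0413), against -0.13 with that library, and also lower than in Hyper (-1.36, adjusted p = 0.0194, against -0.40). *ACTG2* lay between 0.762 CPM (MYO 2, 11 counts) and 10.2 CPM (MYO 5, 121 counts). Hyper libraries were close together at 1.44, 1.58 and 1.54 CPM, below the 2.89 to 6.34 CPM of Control, and the log2 fold change of -1.66 ± 0.798 did not pass the test (adjusted p = 0.284). *MYH11*, *LMOD1* and *ACTG2* were not called in any comparison.

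**Figure D2:**
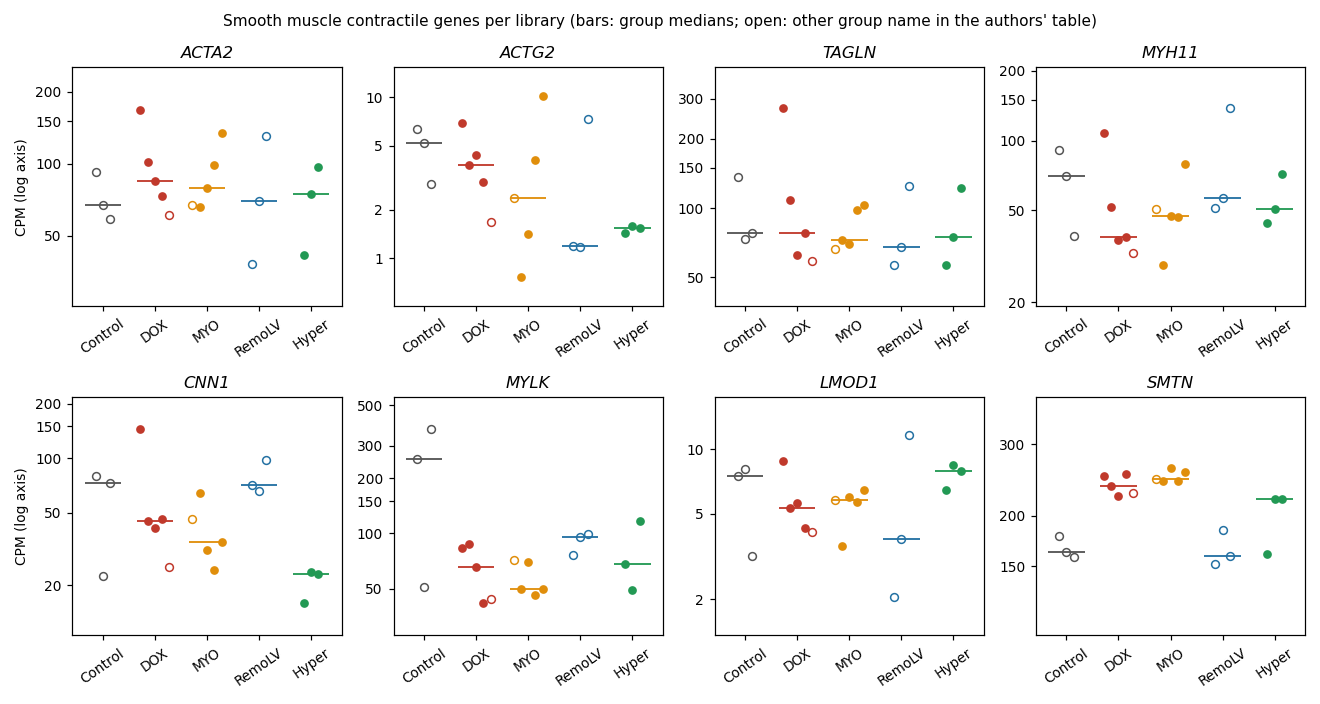
CPM of each member in each library on a log axis, by file-label group, with bars at group medians and open circles for libraries that carry another group name in the authors' table. *SMTN* was at 224 to 262 CPM in all 10 DOX and MYO libraries and at 158 to 178 CPM in Control, and *MYLK* was at 253 and 370 CPM in 2 Control libraries and at most 117 CPM elsewhere.

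Counting calls by comparison, *SMTN* was higher and *MYLK* lower in both DOX and MYO against Control, so that 1 of 8 members rose and 1 fell in each. Over all 13552 genes, 21.0% were higher and 21.1% lower in DOX, and 20.7% were higher and 21.7% lower in MYO, in all 42.1% and 42.4% in either direction. In RemoLV 1 member fell and none rose, where 24.0% of genes fell and 23.1% rose (47.2% in all). The 4 comparisons with Control share its 3 libraries. No member passed in Hyper against Control (3 members at an unadjusted p under 0.05), where edgeR called no gene (0.0%) of 13552, with 2418 at an unadjusted p under 0.05, and DESeq2 called 311 genes but no member. DOX against MYO gave no called member either (0 at an unadjusted p under 0.05), where edgeR called no gene (0.0%), with 960 at an unadjusted p under 0.05, and DESeq2 called 2 genes, none of them a member. RemoLV was above Hyper in 1 member, *CNN1*, where 17.0% of genes were higher and 18.6% lower (35.6% in all). DOX and MYO were above Hyper in 2 members, *CNN1* and *SMTN* (*SMTN* not with the replicate number as a block, adjusted p = 0.064), where 15.8% of genes were higher and 16.9% lower (32.6% in all). With the table names, 1 member rose in DOX (*SMTN*), where 15.0% of genes rose and 14.6% fell, and 1 in MYO (*SMTN*), where 14.8% rose and 14.4% fell. With those names 1 member rose in RemoLV (*MYLK*), where 24.0% of genes rose and 23.2% fell, and 1 fell in Hyper (*CNN1*), where 18.7% rose and 17.2% fell. DOX and MYO were again above Hyper in the same 2 members, where 15.8% of genes were higher and 16.9% lower, and edgeR called no gene (0.0%) between DOX and MYO (at an unadjusted p under 0.05, 564 were higher and 531 lower) or between RemoLV and Hyper (1312 higher and 1153 lower, with *MYLK*, *CNN1* and *SMTN* among them), and DESeq2 was not run with these names. The median log2 fold change of the 8 members against Control was -0.05 (DOX), -0.29 (MYO), -0.07 (RemoLV) and -0.22 (Hyper), beside medians over all genes of 0.03, 0.02, 0.02 and 0.01. With the table names it was 0.189, -0.099, 0.07 and -0.187, beside 0.015, 0.006, -0.022 and -0.014 over all genes. The study required 2 log2 units in either direction of its differentially expressed genes (DEGs). With all libraries, no called member reached this in edgeR's fit in any of the 7 comparisons. In DESeq2, 1 member reached it, *MYLK* in MYO against Control (log2 fold change -2.0, adjusted p = 0.00011). With 1 library left out, edgeR's fits put *MYLK* as low as -2.278 in DOX and -2.444 in MYO against Control.

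**Figure D3:**
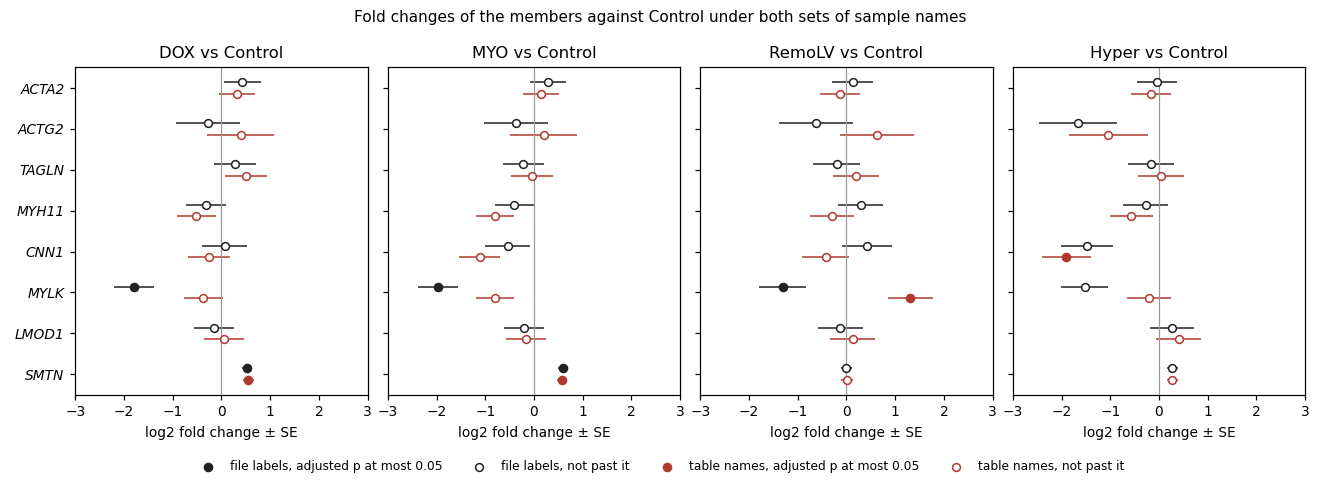
Log2 fold change ± SE of each member against Control, with file labels (black) and table names (red), and filled points for an adjusted p of at most 0.05 in edgeR. *SMTN* was called in DOX and MYO under both sets of names (0.52 to 0.59), and *MYLK* in RemoLV was at -1.31 under the file labels and at 1.31 under the table names.

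Within groups, *SMTN* differed from the other members in how little it varied. The SD of log2 CPM around the group means was 0.127 for *SMTN*, a smaller spread than that of most genes (8.31% of tested genes varied less). For the other 7 members it was between 0.565 (*ACTA2*) and 0.894 (*ACTG2*), more than at least 93.7% of tested genes. Over all 19 libraries the highest exceeded the lowest 1.72-fold for *SMTN*, 4.39-fold for *ACTA2*, 4.79-fold for *MYH11*, 4.85-fold for *TAGLN*, 5.72-fold for *LMOD1*, 8.88-fold for *MYLK*, 9.13-fold for *CNN1* and 13.4-fold for *ACTG2*. In each group 1 library held the highest value for most members. DOX 1 was highest in its group for 6 of the 8, MYO 5 for 5, RemoLV 3 for 7, Hyper 3 for 5 and Control 1 for 6. At the other end, Hyper 1 was lowest for 7 members and DOX 5 and RemoLV 1 for 6 each.

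Across the 19 libraries, 23 of the 28 pairs of members had a Pearson correlation of log2 CPM above 0, and 11 had one of at least 0.5 (median 0.359). These are descriptions, since the libraries differ in group, depth and tissue. *ACTA2*, *TAGLN*, *MYH11*, *LMOD1* and *ACTG2* varied together, from 0.549 (*ACTG2* with *LMOD1*) to 0.841 (*ACTA2* with *TAGLN*). Within the 10 DOX and MYO libraries the correlations of these 5 genes were between 0.601 and 0.916, and within the other 9 libraries between 0.556 and 0.895. Without the 3 RemoLV libraries they were between 0.355 (*ACTG2* with *LMOD1*) and 0.838, and *LMOD1* was at 0.438 with *ACTA2* and at 0.474 with *TAGLN*. *CNN1* followed *TAGLN* (0.5) more than *LMOD1* (-0.117). *MYLK* was at 0.0271 with *ACTA2* and at 0.466 with *CNN1*. Within the DOX and MYO libraries these values were 0.407 and 0.499, and within the others 0.198 and 0.584. *SMTN* was at 0.466 with *ACTA2*, at -0.224 with *MYH11* and at -0.492 with *MYLK*. In the same order these were 0.327, 0.491 and 0.0328 within the DOX and MYO libraries, and 0.412, 0.015 and -0.165 within the others.

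**Figure D4:**
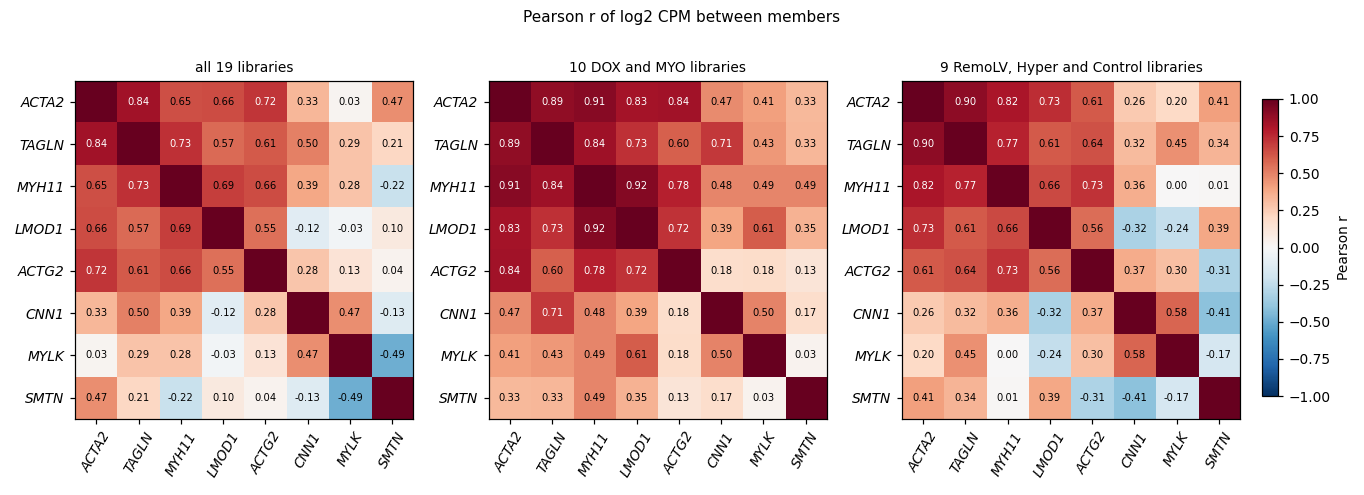
Pearson correlation of log2 CPM between members in all 19 libraries, in the 10 DOX and MYO libraries and in the other 9. The block of *ACTA2*, *TAGLN*, *MYH11*, *LMOD1* and *ACTG2* lay between 0.549 and 0.841 in all libraries, where *SMTN* and *MYLK* had at most 0.466. Within the DOX and MYO libraries *MYLK* lay between 0.0328 (*SMTN*) and 0.607 (*LMOD1*), and *SMTN* between 0.0328 (*MYLK*) and 0.491 (*MYH11*).

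Of all genes with a symbol and a mean of at least 2 CPM, those with the highest mean correlation with the 8 members over the 19 libraries were *TDG* (0.556), *UBALD1* (0.527), *MYADM* (0.514), *CSRP1* (0.51), *MARK4* (0.501), *NAB2* (0.483), *CNN2* (0.482), *PHF13* (0.48), *TRIB2* (0.475) and *ID4* (0.475). *CSRP1* encodes a LIM protein of the smooth muscle cytoskeleton and *CNN2* is a paralog of *CNN1*. *CSRP1* was the gene most like *ACTA2* (0.851), and *MYADM* the gene most like *TAGLN* (0.848). Some single members had closer companions outside that list: *SLC7A5* with *CNN1* (0.904), *KIF1B* with *MYLK* (0.875) and *FAM3A* with *SMTN* (0.951). *FAM3A* was between 43.2 and 50.9 CPM in DOX and MYO and between 27.9 and 41.6 CPM elsewhere. The part of group differences in these correlations was not tested.

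The counts of the lists that follow stand beside the shares over all genes, of which 42.1% in DOX, 42.4% in MYO and 47.2% in RemoLV were called in either direction under the file labels. Among 12 tested regulators of myosin phosphorylation, 3 were higher and 6 lower in both DOX and MYO against Control. The higher ones were *MYL9*, the smooth muscle regulatory light chain that *MYLK* phosphorylates, and *PPP1R12B* and *PPP1R12C*, targeting subunits of myosin phosphatase. *PPP1R12B* rose from 739 ± 34.6 CPM (SD, n = 3) in Control to 933 ± 72.1 in DOX and 952 ± 52.7 in MYO, a log2 fold change of 0.34 (edgeR adjusted p = 0.0164) and 0.37 (adjusted p = 0.0101), and it was also above Hyper (0.60, adjusted p = 0.000189). The call in DOX was lost without Control 1 (adjusted p = 0.0561) and with the replicate number as a block (0.31, adjusted p = 0.0603), and both calls against Control without Control 1 and Control 3 (adjusted p = 0.105 and 0.0878). The lower ones included *PPP1CB*, the catalytic subunit of that phosphatase, which fell from 691 ± 86.5 CPM to 435 ± 24.7 in DOX (log2 fold change -0.67, adjusted p = 0.00132) and to 420 ± 21.3 in MYO (-0.72, adjusted p = 0.000729). *PPP1CB* was not called in either without Control 1 and Control 3 (adjusted p = 0.0891 and 0.0675), on library totals (adjusted p = 0.189 and 0.111) or under the table names (-0.16 and -0.19). *RHOA*, *ROCK1*, *ROCK2*, *PRKG1* and *PPP1R12A* were the other genes of the list that fell in both. By those names *DAPK3*, *PPP1R12B* and *PPP1R12C* were higher in each and *PRKG1* was lower, so that the calls of *MYL9*, *RHOA*, *ROCK1*, *ROCK2* and *PPP1R12A* were lost as well. The median of the list was -0.21 in DOX and -0.32 in MYO, and 0.034 and -0.14 with the table names. In RemoLV 2 genes of the list were higher and 7 lower than in Control. *PPP1R12B* was among the lower (log2 fold change -0.31, edgeR adjusted p = 0.0376) and turned under the table names (0.31, adjusted p = 0.0288).

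Of 21 tested partners of thin filaments and dense bodies, 3 were higher and 5 lower in both DOX and MYO. *FLNA* (filamin A, an actin crosslinker) and *PDLIM7* rose in both, with *SVIL* in DOX and *DES* in MYO, and *CALD1*, *LPP* and *SYNM* were among those that fell in both. Under the table names 6 genes of this list were higher and 3 lower in DOX, and 3 were higher and 3 lower in MYO, with *CALD1*, *LPP* and *SYNM* not called. The most abundant genes of the list were *TPM1*, a tropomyosin of striated and smooth muscle (mean of 19 libraries 5360.0 CPM), which was not called in DOX or MYO under either set of names, and *DES*, the intermediate filament protein desmin (4180.0 CPM). Of 10 SRF and myocardin regulators, *MRTFA*, *NFATC4* and *SRF* were higher and *HEY1*, *MYOCD* and *TEAD1* lower in DOX. Of these 6 calls only that of *SRF* was made under the table names, where *KLF4* was also higher and *MRTFB* lower, and *MYOCD* and *TEAD1* were among the genes high in Control 1 and Control 3. *FHL2*, a LIM protein of heart muscle and the most abundant gene of the list (273 CPM), was lower in MYO and was not called there under the table names. *SRF* had between 108 and 237 CPM in DOX (highest in DOX 1) and between 95.8 and 97.6 CPM in Control, a log2 fold change of 0.65 (edgeR adjusted p = 0.0118). It was 0.42 without DOX 1 and still called (adjusted p = 0.0196), but not called with only the groups compared (adjusted p = 0.0615) or without Control 1 and Control 3 (adjusted p = 0.157). In MYO it had between 112 and 134 CPM (0.38, adjusted p = 0.115). Against Hyper, with 81.2 to 95.0 CPM, the mean of DOX and MYO was higher by 0.67 (adjusted p = 0.0077). Across libraries *SRF* correlated at 0.686 with *ACTA2*, 0.614 with *TAGLN*, 0.603 with *SMTN* and 0.484 with *ACTG2*. With the other members it was at 0.346 (*CNN1*), 0.226 (*LMOD1*), 0.208 (*MYH11*) and -0.162 (*MYLK*). *MYOCD* was at 0.838 with *MYLK*, 0.495 with *TAGLN*, 0.493 with *CNN1* and 0.315 with *ACTG2*. It was at 0.259 with *MYH11*, 0.212 with *ACTA2*, 0.0567 with *LMOD1* and -0.249 with *SMTN*.

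Among 14 tested paralogs of the members, 4 rose and 1 fell in DOX, and 2 rose and 3 fell in MYO. With the table names 6 rose and 2 fell in DOX, and 3 rose and 2 fell in MYO. *ACTA1* was not called in DOX or MYO under the file labels and rose in both under the table names, whereas *ACTC1* rose in DOX under the file labels and fell under the table names. *SMTNL2*, a smoothelin-like gene, went from 10.6 CPM in Control to 23.5 CPM in DOX (log2 fold change 1.15, adjusted p = 0.00201) and 22.0 CPM in MYO (1.05, adjusted p = 0.00359), but was not called without Control 1 and Control 3 (adjusted p = 0.137 and 0.187) and was lower than Control under the table names (-0.74 and -0.65). *ACTB* was higher in DOX and MYO than in Hyper by 0.78 (adjusted p = 0.0106, and not called without Hyper 1, adjusted p = 0.0725), and *MYH14*, a nonmuscle myosin heavy chain, was lower by 0.63 on the log2 scale (-0.63, adjusted p = 0.000102).

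Markers of other vessel and stromal cells were counted beside the members. Of 10 mural cell markers (pericytes and smooth muscle), 4 rose and 3 fell in DOX, and 5 rose and 3 fell in MYO, and under the table names 2 rose and 1 fell in DOX and 2 rose in MYO with none lower. *PDGFRB*, the receptor of mural cells and fibroblasts, rose by 0.80 (adjusted p = 0.00157) in DOX and 0.88 (adjusted p = 0.000763) in MYO, and exceeded Hyper by 0.71 (adjusted p = 0.00274), but under the table names it was not called in DOX (0.41, adjusted p = 0.0823) or MYO (0.33, adjusted p = 0.163). In contrast, *RGS5*, a pericyte gene, fell by 0.62 in DOX (adjusted p = 6.17e-05) and by 0.48 in MYO (adjusted p = 0.000577). The direction of *RGS5* turned under the table names (0.13 and 0.21, not called), and on library totals it was not called (-0.20 and -0.057). The summed level of the mural markers was between 1000.0 and 1140.0 CPM in Control, between 851 and 1100.0 CPM in DOX, between 967 and 1110.0 CPM in MYO, between 830.0 and 869 CPM in RemoLV and between 999 and 1070.0 CPM in Hyper. Of 12 tested endothelial markers, 3 rose and 3 fell in DOX, 3 rose and 2 fell in MYO, and 6 fell in RemoLV with none higher, and *EGFL7* was at 0 counts in all 19 libraries. Under the table names 8 rose and 1 fell in DOX, 7 rose and 1 fell in MYO, and 6 rose in RemoLV with none lower. *VWF* (297 CPM) rose in DOX under both sets of names, and *PECAM1* (286 CPM) fell in DOX under the file labels and rose under the table names. Of 10 fibroblast markers, 3 were higher in DOX and 3 in MYO, where 1 was lower, and 7 were higher in RemoLV. The direction turned under the table names, where no fibroblast marker was higher and 8 were lower in MYO, 7 in DOX and 7 in RemoLV. *COL3A1* was at 1.06 on the log2 scale in DOX and 1.09 in MYO (adjusted p = 0.00312 and 0.0025) and *COL1A1* at 1.28 and 1.16 (adjusted p = 0.0024 and 0.00437), whereas neither was called without Control 1 and Control 3 (adjusted p up to 0.203) and under the table names *COL3A1* was at -1.16 and -1.15 and *COL1A1* at -0.56 and -0.89. The summed level of all 10 fibroblast markers was between 2330.0 and 3690.0 CPM in Control, between 5060.0 and 7490.0 in DOX and between 4920.0 and 6960.0 in MYO. It was between 11300.0 and 13000.0 CPM in RemoLV and between 1770.0 and 4120.0 in Hyper. Of 10 activated fibroblast markers, 1 was higher in DOX (*FN1*), 2 were higher and 2 lower in MYO, and 6 were higher and 1 lower in RemoLV. With the table names 1 was higher in each group, and 6 were lower in RemoLV, 5 in DOX (*FN1* not called) and 4 in MYO. The most abundant gene of this list, *THBS4* (162 CPM), was called in DOX under the table names only, as lower. The levels of *ACTA2* overlapped between all groups over this range of fibroblast marker levels. Across 19 libraries the correlation of *ACTA2* with the summed fibroblast markers was 0.0861, and with the summed activated fibroblast markers -0.0425. With single genes it was 0.543 for *PDGFRB*, 0.383 for *POSTN*, an activated fibroblast marker, and 0.212 for *COL1A1*.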

How the data were processed

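RNA-seq counts of 19 pigs were used, from tissue labelled as LV, with 1 library per pig, so that replicates are animals. Per the methods and processing notes of the study, the authors used STAR to align read pairs to Sscrofa11.1 and HTSeq 0.11.1 (union mode, reversed strand) to count them on Ensembl genes, and the deposited counts are raw. The authors also deposited a table whose columns hold log2 fold changes and adjusted p-values of their DESeq2 comparisons, which were not used, and expression values on a log2 scale, which served here only to match its sample names to the count files. Members and lists were chosen with earlier results of these data known, and p-values are given only from fits over all genes. Groups were taken from the count-file labels.

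In R 4.3.3, counts were scaled with TMM and filtered with filterByExpr in edgeR 4.0.16, and 1 quasi-likelihood model of the 5 groups was tested in 7 comparisons with Benjamini-Hochberg adjustment over 13552 genes at 0.05. The procedure was tested on simulated data. CPM are counts per 1000000 of the TMM-scaled total, correlations used log2(CPM + 0.5), and lengths and promoters came from RefSeq for Sscrofa11.1 (the promoter of *TAGLN* is not reported here). Symbols came from the authors' table for 13363 genes and from a reference table for a further 2679. Named were all members and their paralogs, the 2 most abundant tested genes of each list described, and the 10 genes most like the members, and the other names were chosen after their values were seen. Alternatives were DESeq2 1.42.0, other scalings and filters, only the groups compared, the table names, each library left out and the replicate number as a block. Same-numbered libraries of DOX and Control deviated together (correlations 0.242, 0.158 and 0.117), with no source for a pairing other than the data, and those of no other pair of groups did in every number. Added after seeing the data were fits without the RemoLV libraries and without Control 1 and 3. No row lacked a gene name, and no 2 libraries agreed within sampling noise. Tables and plots used Python 3.11.15, pandas 2.3.3, numpy 2.4.6 and matplotlib 3.10.9.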

Additional observations from a re-analysis of the deposited data

Results flagged for a closer look

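In the DOX and MYO groups of 5 libraries, 16 sets of member values were searched for a library far from the rest, by the gap to its neighbour as a share of the range of the group (Dixon's test). In 4 of the 16 the gap exceeded the critical value of 0.71. For normally distributed values chance gives about 1 in 20. The values searched were CPM without a log transform, which need not be so distributed, so that this rate may not hold. The search was not repeated on the log scale. DOX 1 was the highest library for *TAGLN* at 273 CPM (next 109 CPM), for *CNN1* at 145 CPM (next 46.3 CPM) and for *MYH11* at 108 CPM (next 51.7 CPM). These 3 values come from 1 library, which also had the highest *SRF* (237 CPM) and *FLNA* (1100.0 CPM) of the DOX group. Leaving out DOX 1 moved the log2 fold change of *TAGLN* in DOX from 0.28 to -0.33 and that of *CNN1* from 0.06 to -0.57, without a call in either. MYO 2 was the lowest MYO library for *LMOD1* at 3.53 CPM (next 5.71 CPM).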

How the results depend on the processing

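Of the member log2 fold changes recomputed under the alternatives, 911 kept their direction and their side of the threshold, 19 were no longer called, 9 became called and 93 changed direction, and *SMTN* in DOX and MYO against Control stayed called under every alternative run. Directions that changed are given as log2 fold changes, and the cause was not tested. Library totals without TMM moved the median of all genes to 0.45 in DOX, 0.44 in MYO, 0.52 in RemoLV and 0.17 with Hyper, gave 1 member higher and 0 lower in RemoLV, and gave *ACTG2* 0.11 in DOX and 0.068 in MYO, *MYH11* 0.071, 0.019 and (DOX and MYO against Hyper) 0.16, *LMOD1* 0.21, 0.19 and (RemoLV) 0.36, *TAGLN* 0.24 in MYO, 0.34 in RemoLV, 0.037 in Hyper and 0.31 in RemoLV against Hyper, *SMTN* 0.50 in RemoLV (called) and 0.065 in RemoLV against Hyper, and *ACTA2* 0.14 in Hyper. Upper-quartile scaling gave 0.11 for *SMTN* in RemoLV, 0.002 for *ACTA2* in Hyper and 0.045 for *TAGLN* in RemoLV against Hyper, and a minimum of 10 counts gave 0.04 for *SMTN* in RemoLV and 0.002 for *TAGLN* in RemoLV against Hyper. DESeq2 called 1 member (*SMTN*) lower in RemoLV than in Hyper, and with only the groups compared 0 members were lower in RemoLV.

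Under the table names 0 members were lower in DOX or MYO, 1 was higher and 0 lower in RemoLV, 1 was lower in Hyper and 0 higher in RemoLV against Hyper. By its construction the exchange of Control and RemoLV turned their comparison for *ACTA2* (-0.12), *ACTG2* (0.62), *TAGLN* (0.20), *MYH11* (-0.29), *CNN1* (-0.42), *MYLK* (1.31), *LMOD1* (0.13) and *SMTN* (0.01). The table names, which also exchange DOX 5 with MYO 1, turned *ACTG2* (0.39), *CNN1* (-0.26) and *LMOD1* (0.056) in DOX, *ACTG2* (0.20) in MYO, *TAGLN* in Hyper (0.033) and in RemoLV against Hyper (0.17), *RGS5* (0.13 in DOX, 0.21 in MYO), *SMTNL2* (-0.74 and -0.65), *COL3A1* (-1.16 and -1.15), *COL1A1* (-0.56 and -0.89) and *COL3A1* in RemoLV against Hyper (-0.031).

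Without Control 1 and 3 there were 0 members lower in DOX, MYO and RemoLV. *MYLK* was at 0.35 (DOX), 0.18 (MYO), 0.83 (RemoLV) and 0.62 (Hyper), *TAGLN* at 0.16 in MYO, 0.17 in RemoLV and 0.21 in Hyper, *CNN1* at 0.83 in MYO, *SMTN* at 0.012 in RemoLV, *ACTA2* at 0.078 and *LMOD1* at -0.10 in Hyper. Without the RemoLV libraries 1 member was higher in DOX and MYO than in Hyper.

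Each library left out in turn gave these ranges. *ACTA2* lay between -0.43 and 0.46 in RemoLV, -0.33 and 0.23 in Hyper against Control, -0.39 and 0.49 in RemoLV against Hyper, and -0.15 and 0.33 in DOX against MYO. *TAGLN* lay between -0.33 and 0.62 with DOX, -0.38 and 0.12 with MYO, -0.62 and 0.13 with RemoLV, -0.54 and 0.17 with Hyper, -0.10 and 0.67 in DOX against MYO, -0.45 and 0.33 in RemoLV against Hyper, and -0.11 and 0.57 for DOX and MYO against Hyper. *LMOD1* lay between -0.47 and 0.081 with DOX, -0.52 and 0.034 with MYO, -1.09 and 0.28 with RemoLV, -0.045 and 0.51 with Hyper, -0.18 and 0.14 in DOX against MYO, and -1.36 and 0.007 in RemoLV against Hyper. *MYH11* lay between -0.31 and 0.58 with RemoLV, -0.55 and 0.017 with Hyper, -0.34 and 0.31 in DOX against MYO, -0.041 and 0.81 in RemoLV against Hyper, and -0.32 and 0.14 in DOX and MYO against Hyper. *ACTG2* lay between -0.21 and 0.90 in DOX against MYO and -0.35 and 1.45 in RemoLV against Hyper, *CNN1* between -0.57 and 0.35 in DOX and -0.027 and 0.83 in DOX against MYO, *MYLK* between -0.039 and 0.62 in RemoLV against Hyper and -0.61 and 0.055 in DOX and MYO against Hyper, and *SMTN* between -0.097 and 0.044 in RemoLV. Members called ranged from 0 to 2 higher in DOX and MYO against Hyper, 0 to 1 higher and 0 to 2 lower in Hyper, 0 to 1 lower in RemoLV, and 0 to 1 lower in RemoLV against Hyper. The call of *MYLK* in RemoLV was lost without any 1 RemoLV library, Control 1 or Control 3, also on library totals and with only the groups compared (adjusted p 0.000321 to 0.231 over its alternatives).

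With the replicate number as a block (replicate block), 1 member instead of 2 was higher in DOX and MYO than in Hyper, since *SMTN* had a log2 fold change of 0.29 (adjusted p = 0.064), no other member call changed, and the call of *PPP1R12B* in DOX was lost. The number of pigs per group limits these comparisons, and depth limits *ACTG2* and *LMOD1*, with as few as 11 and 29 counts in a library.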
